A study of Mus musculus with 19 samples.

Results

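The 10 long noncoding RNAs described here are Neat1, Malat1, Meg3, H19, Kcnq1ot1, Gas5, Snhg1, Snhg5, Snhg12 and Dnm3os. They were chosen by name as nuclear, imprinted and small-RNA-host transcripts, and are 10 of the 54532 genes of the count table. They were measured by bulk RNA-seq in the obstructed left kidneys of 19 male mice, 8 to 9 weeks old and on the C57BL/6J background, 12 days after unilateral ureteral obstruction (UUO), a surgical model of kidney fibrosis. There were 5 wild-type (WT) mice given PBS, 5 WT mice given recombinant CD5L (rCD5L, daily intraperitoneal injections of 0.5 mg per mouse), 4 CD5L knockout (CD5L KO) mice that received PBS and 5 that received rCD5L. CD5L is secreted by macrophages, and all 4 groups had UUO and heparin perfusion before harvest, so no unobstructed kidney entered these comparisons. The sources used here do not say whether WT and CD5L KO mice were littermates, and each value is of a whole kidney with all of its cell types.

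Long noncoding RNAs act as RNA rather than as templates for protein, and many stay in the nucleus. Neat1 is the scaffold of paraspeckles, and Malat1 gathers in the neighbouring nuclear speckles, both of which hold splicing factors. Meg3, H19 and Kcnq1ot1 are imprinted, that is, transcribed from the copy of a single parent. Gas5, Snhg1, Snhg5 and Snhg12 are host genes: their introns carry small nucleolar RNAs (snoRNAs), which guide the modification of ribosomal RNA, while the spliced remainder is often destroyed by nonsense-mediated decay. Dnm3os is the host transcript of miR-199a and miR-214, microRNAs known from activated fibroblasts.

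The microRNAs carried by Dnm3os and H19 are shown because these host RNAs are measured here through their long transcripts only. Mature sequences are from RefSeq (GRCm38.p6), 5′ to 3′, with the seed (bases 2 to 8) in capitals. Dnm3os holds Mir199a-2 and Mir214 on the plus strand of chromosome 1, with miR-199a-5p at chr1:162217844-162217866 and miR-214-3p at chr1:162223438-162223459. H19 holds Mir675 on the minus strand of chromosome 7, with miR-675-5p at chr7:142577112-142577133. The 6 seeds differ from each other.
miR-199a-5p: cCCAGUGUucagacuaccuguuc
miR-199a-3p: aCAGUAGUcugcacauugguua
miR-214-5p: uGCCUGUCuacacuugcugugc
miR-214-3p: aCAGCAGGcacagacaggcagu
miR-675-5p: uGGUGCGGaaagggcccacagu
miR-675-3p: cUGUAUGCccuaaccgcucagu

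None of the hosted small RNAs could be followed here. The genes of these microRNAs, of Mir770 and Mir1906-1 in Meg3, and of the annotated snoRNAs in Gas5 (10), Snhg1 (8), Snhg5 (2) and Snhg12 (5) had a total count of 0 over the 19 kidneys. The values below are therefore those of the host transcripts.

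RefSeq start-site windows, which run from 250 bases before a start to 50 bases after it, were given for 8 of the 10 genes and not for Neat1 and H19. Those of Dnm3os (chr1:162217373-162217672, plus strand, GRCm38.p6) and of the second listed start of Gas5 (chr1:161034916-161035215, plus strand) are shown, as these RNAs had the smallest adjusted p and the only higher level among the RNAs that differed between the genotypes. Capitals mark the letters of a CArG box in Dnm3os (CC and GG around a run of A or T, the element bound by serum response factor), which begins 33 bases before the start. In Gas5 they mark a TGACGTCA, the letters of a cAMP response element, which begins 46 bases before the start. Both were searched on either strand, do not overlap another searched motif, and were chosen after the sequences were seen.
Dnm3os: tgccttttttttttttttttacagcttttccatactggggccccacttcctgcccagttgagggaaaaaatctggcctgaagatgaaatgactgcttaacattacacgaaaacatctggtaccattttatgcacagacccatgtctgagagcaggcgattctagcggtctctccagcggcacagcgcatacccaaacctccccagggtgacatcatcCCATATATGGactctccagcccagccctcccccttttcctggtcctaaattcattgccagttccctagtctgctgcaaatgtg
Gas5: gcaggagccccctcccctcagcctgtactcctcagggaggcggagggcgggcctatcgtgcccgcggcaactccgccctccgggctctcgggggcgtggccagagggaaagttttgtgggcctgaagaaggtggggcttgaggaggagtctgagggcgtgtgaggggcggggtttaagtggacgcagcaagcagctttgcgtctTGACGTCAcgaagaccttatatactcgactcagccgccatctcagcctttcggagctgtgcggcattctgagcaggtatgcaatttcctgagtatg

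A CArG box was present in 1.63% of 32851 such windows of the mouse genome, and TGACGTCA in 1.79%. The first window of Meg3 (chr12:109540746-109541045, plus strand) also held TGACGTCA, 57 bases before the start, together with TATAAA on both strands 25 and 29 bases before it, and the second (chr12:109545148-109545447) held a CArG box 94 bases before the start. TATAAA stood as well in the windows of Snhg5 and, on the minus strand, Snhg1, and in 13.6% of all windows. These are matches of letters, not measured binding.

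The genes lie on 6 chromosomes of GRCm38, the build of the files. Malat1 (ENSMUSG00000092341, chr19:5795690-5802672, minus strand) and Neat1 (ENSMUSG00000092274, chr19:5824708-5845478, minus strand) are neighbours. Snhg1 (ENSMUSG00000108414, chr19:8723475-8726443, plus strand) is farther along the same chromosome. H19 (ENSMUSG00000000031, chr7:142575529-142578143, minus strand) and Kcnq1ot1 (ENSMUSG00000101609, chr7:143203458-143296549, minus strand, inside Kcnq1 and antisense to it) share an imprinted region. Meg3 (ENSMUSG00000021268, chr12:109541001-109571726, plus strand), Snhg5 (ENSMUSG00000097195, chr9:88521050-88522929, minus strand) and Snhg12 (ENSMUSG00000086290, chr4:132308623-132311024, plus strand) lie apart. Gas5 (ENSMUSG00000053332, chr1:161034422-161038539, plus strand) overlaps Zbtb37 on the opposite strand, and Dnm3os (ENSMUSG00000078190, chr1:162217623-162225550, plus strand) lies antisense within Dnm3. The strand setting of the counting is not given in the sources used here, so reads of Kcnq1ot1, Gas5 and Dnm3os cannot be fully told apart from those of their antisense partners.

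The total count per kidney was 17917491 to 23847090 (median 21762343). Cd5l itself had 0 counts in all 9 CD5L KO kidneys, which allows up to 3 counts in each, and 3 to 15 counts in the WT kidneys. Among kidneys, 2 of the CD5L KO mice given rCD5L stood apart. On the first principal component of all genes (49.5% of the variance) replicate 4 lay at 109, where the other 18 kidneys lay between -21 and 17.6, and on the second (14.4%) replicate 3 lay at 60.2. Summed over 12 proximal tubule markers, replicate 4 had 57110 CPM (counts per 1000000 of the TMM-scaled library) and replicate 3 had 10110, where the other kidneys had 3590 to 9070. Tests of the RNAs with this group are given with and without these 2 kidneys.

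**Figure D1:**
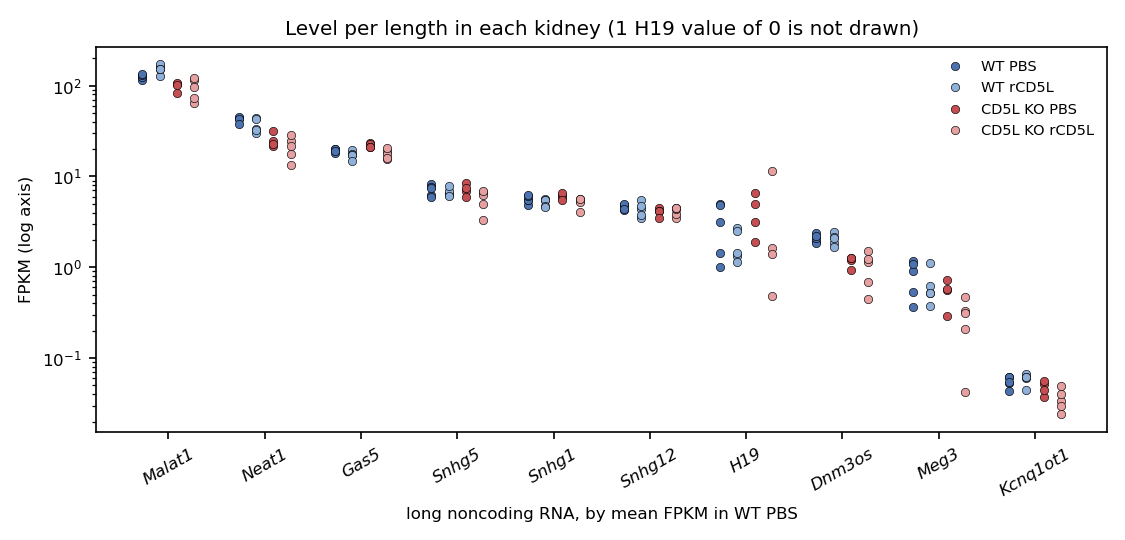
Level per length (FPKM, log axis) of each long noncoding RNA in each of the 19 kidneys, coloured by group and ordered by the mean in WT mice given PBS. Levels run from 126 FPKM for Malat1 to 0.0552 FPKM for Kcnq1ot1 in that group, and the H19 values are the most scattered.

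Per length, Malat1 was the most abundant of the 10 in all 4 groups, with 126 ± 7.57 FPKM (SD, n = 5) in WT mice given PBS. Neat1 followed with 42.6 ± 3.12 FPKM and Gas5 with 19.4 ± 0.842, each clear of its neighbours in that group. The levels of Snhg5 (7.10 ± 0.993), Snhg1 (5.64 ± 0.544), Snhg12 (4.62 ± 0.330), H19 (3.08 ± 1.85) and Dnm3os (2.09 ± 0.200) formed a run in which the kidneys of each RNA overlapped those of the next. Meg3 had 0.808 ± 0.346 FPKM and Kcnq1ot1 0.0552 ± 0.00748, where Meg3 lay below every Dnm3os value but met H19 (0.9988 to 4.931), and Kcnq1ot1 lay below all the others. The order was nearly the same in CD5L KO mice given PBS, except that H19 stood above Snhg12 there, and the ranges of Neat1 (25.1 ± 4.54, n = 4) and Gas5 (21.9 ± 1.14) met. Depth differed accordingly: Neat1 rested on 7197 to 26497 counts per kidney, Dnm3os on 92 to 546, and Kcnq1ot1 on 38 to 176 spread over a long gene.

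In CD5L KO kidneys given PBS, the paraspeckle scaffold Neat1, the speckle RNA Malat1 and the microRNA host Dnm3os were lower than in WT kidneys given PBS, and the snoRNA host Gas5 was slightly higher. These were 4 of the 10 RNAs (3 lower and 1 higher) at an adjusted p under 0.05, by the quasi-likelihood test of edgeR, with p adjusted by Benjamini-Hochberg over all 17579 genes tested. Over all genes tested 10.5% were called, 5.13% higher and 5.4% lower. The median log2 fold change was -0.19 for the 10 RNAs and -0.0046 for all genes. In whole tissue, fewer cells of a type that holds an RNA and less of that RNA per cell cannot be told apart.

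Neat1 had 622, 814, 549 and 589.7 CPM in the 4 CD5L KO kidneys. It had 1120, 1116, 1148, 1068 and 951 CPM in the 5 WT kidneys, so the highest CD5L KO kidney lay below the lowest WT kidney. The log2 fold change was -0.75 (standard error, SE, 0.106, adjusted p = 0.0048, edgeR), the second largest fall among the 10. The counts do not separate the short and long forms of Neat1, of which the long one builds paraspeckles. The paper's methods do not say how RNA was selected before priming, so the share of each form in these counts is not known.

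Malat1 had 895, 918, 713 and 872 CPM in CD5L KO kidneys. WT kidneys had 966, 1098, 1053, 1104.9 and 1144 CPM, again with no overlap between the groups. The difference was smaller than for Neat1, with a log2 fold change of -0.34 (SE 0.0804, adjusted p = 0.0199, edgeR). Without WT replicate 4 the adjusted p was 0.0509.

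Dnm3os had 11.7, 12.3, 9.13 and 12.2 CPM in CD5L KO kidneys. In WT kidneys it had 18.7, 18.1, 20.2, 22.7 and 21.4 CPM, each above every CD5L KO kidney. Its log2 fold change of -0.84 (SE 0.107, adjusted p = 0.00464, edgeR) was the largest fall of the 10, and by p it ranked 14 of the 17579 genes. Dnm3, the gene on the other strand, had a log2 fold change of -0.17 (SE 0.0989, adjusted p = 0.296).

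Gas5, a growth-arrest transcript whose start carries the pyrimidine tract of translation genes, had 108, 105, 97.6 and 96.7 CPM in CD5L KO kidneys. WT kidneys had 82.6, 90.06, 93.0, 91.5 and 87.8 CPM, all below the lowest CD5L KO kidney. The log2 fold change was 0.19 (SE 0.0542, adjusted p = 0.0466, edgeR). That call was close to the threshold and was lost in 8 of the 9 fits that left out 1 kidney, with adjusted p from 0.0440 to 0.134. For Snhg1 the log2 fold change was 0.10 (adjusted p = 0.485), for Snhg5 0.04 (0.89) and for Snhg12 -0.17 (0.297), none of them called. The groups did not overlap for these 4 called RNAs alone (3 lower and 1 higher), where 14.1% of all genes did not overlap, 6.84% lower and 7.26% higher.

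The imprinted RNAs were not called, and the kidneys of the 2 genotypes overlapped for each of them. Meg3, an RNA of the Dlk1-Dio3 cluster, had 12.5, 16.1, 6.49 and 12.7 CPM in CD5L KO kidneys and 20.1, 25.7, 11.8, 23.7 and 8.07 in WT kidneys. Its log2 fold change was -0.58 (SE 0.324, adjusted p = 0.275, edgeR). H19, best known for its high level in the fetus, had 15.1, 19.9, 5.78 and 9.53 CPM in CD5L KO kidneys and 14.7, 9.56, 4.33, 14.6 and 3.01 in WT kidneys. Its log2 fold change was 0.44 (SE 0.446, adjusted p = 0.574). Their coefficients of variation among WT kidneys were 42.8% and 59.6%, where Neat1 had 7.2% and Gas5 4.52%. Kcnq1ot1, which silences neighbouring genes on the chromosome that transcribes it, had 4.31 to 6.39 CPM in CD5L KO and 5.01 to 7.12 in WT kidneys, with a log2 fold change of -0.21 (SE 0.156, adjusted p = 0.436).

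**Figure D2:**
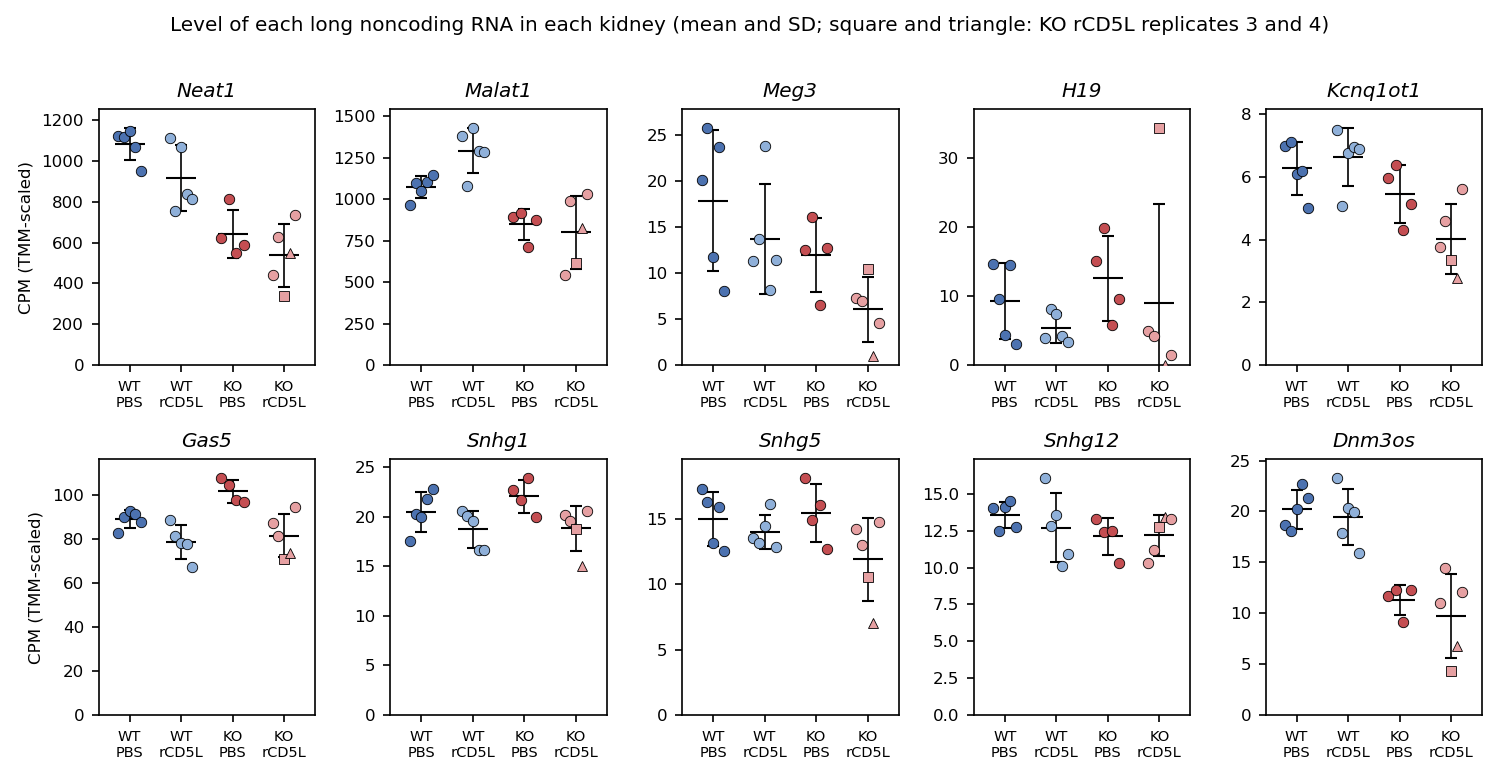
CPM (TMM-scaled, linear axes from 0) of each long noncoding RNA in each kidney, by genotype and treatment, with the group mean and SD (bars are cut at 0), and with replicates 3 and 4 of CD5L KO mice given rCD5L drawn as a square and a triangle. Neat1 and Dnm3os lie lower in every CD5L KO kidney than in any WT kidney of the same treatment, and H19 holds 1 kidney at 34.3 CPM and 1 at 0.

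These calls rest on the spread among the 9 kidneys compared. With all 19 kidneys sharing 1 estimate of the spread, 0 of the 10 RNAs and 12 of all genes were called, the log2 fold changes being nearly the same (Neat1 -0.75, adjusted p = 0.0961; Dnm3os -0.83, adjusted p = 0.134). Across the 17579 genes longer genes had lower log2 fold changes (rho -0.277 by Spearman, with genes as points, which are no independent replicates). With that trend removed, Neat1 had -0.62 (adjusted p = 0.0096), Dnm3os -0.77 (0.00699), Malat1 -0.29 (0.0384) and Gas5 0.19 (0.0544).

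The same comparison could be made in other mice, between CD5L KO and WT kidneys that had both received rCD5L, a comparison added after the data were seen. Here no gene of 17360 was called by edgeR (0%), with 17.8% at an unadjusted p under 0.05, and DESeq2 called 150 genes. With all 19 kidneys in 1 fit, 1291 genes and 4 of the 10 RNAs were called, namely Dnm3os (adjusted p = 0.0311, edgeR), Malat1 (0.0311), Neat1 (0.0318) and Kcnq1ot1 (0.0387), each with less in CD5L KO kidneys. The biological coefficient of variation was 27%, against 12.6% between the groups given PBS. Of the 10 RNAs 5 had an unadjusted p under 0.05, namely Dnm3os, Neat1, Malat1, Kcnq1ot1 and Meg3, each with less in CD5L KO kidneys and each at an adjusted p of 0.259.

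Neat1 had 442.5, 629, 339.6, 549.9 and 733 CPM in CD5L KO kidneys given rCD5L and 1111, 753, 1068, 839 and 811 CPM in WT kidneys given rCD5L, which do not overlap. The log2 fold change was -0.77 (SE 0.213), close to the -0.75 seen with PBS. Over the alternatives other than leaving out 1 kidney, it ran from -0.82 to -0.49. As with PBS, longer genes had lower log2 fold changes in this comparison (rho -0.276 by Spearman, with genes as points). Malat1 had 541, 991, 616, 829 and 1030 CPM against 1382, 1078, 1427, 1291 and 1285, again without overlap, and a log2 fold change of -0.69 (SE 0.193). Dnm3os had 10.99, 14.5, 4.34, 6.82 and 12.1 CPM against 23.3, 17.9, 20.3, 20.0 and 15.9, without overlap, and a log2 fold change of -0.997 (SE 0.275). These were 3 RNAs lower without overlap, where 3.09% of all genes were. Cell type markers differed beside them, none of them called. The endothelial sum was 724 to 763 CPM in CD5L KO and 826 to 891 in WT kidneys, without overlap. All 12 fibroblast (median log2 fold change -0.37), all 10 macrophage (-0.26) and all 10 T and B cell markers (-0.35) were below 0, and all 12 proximal tubule (1.79), 10 distal nephron (0.52) and 8 urothelium markers (0.46) above 0. Without replicates 3 and 4 the proximal tubule sum was 4591 to 5319 CPM in CD5L KO kidneys, within the 3587 to 5692 CPM of the WT kidneys. The part of these markers in the RNA values was not tested.

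Kcnq1ot1 had 3.78, 4.61, 3.35, 2.78 and 5.63 CPM against 7.501, 5.08, 6.75, 6.95 and 6.91, a log2 fold change of -0.72 (SE 0.204). Over the alternatives other than leaving out 1 kidney, that value ran from -0.75 to -0.22. Meg3 had 7.34, 6.98, 10.4, 0.953 and 4.61 CPM against 11.3, 13.7, 23.9, 8.195 and 11.5, a log2 fold change of -1.18 (SE 0.459). In both, the groups overlapped. The 4 snoRNA hosts lay between -0.24 (Snhg5) and 0.05 (Gas5), with adjusted p of 0.482 or more.

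Without replicates 3 and 4 of the CD5L KO mice given rCD5L, Dnm3os was called with a log2 fold change of -0.65 (adjusted p = 0.0288, edgeR), 1 of 644 genes called. Neat1 then had -0.62 (adjusted p = 0.0515), Malat1 -0.61 (0.0614), Meg3 -1.13 (0.0537) and Kcnq1ot1 -0.52 (0.113). Gas5 had 0.15, Snhg1 0.09, Snhg5 -0.011 and Snhg12 -0.14, with adjusted p of 0.323 to 0.969. H19, at 0.71 with all kidneys, had -0.63 without these 2 (adjusted p = 0.355). Replicate 3 had the highest H19 value of the series, 34.3 CPM, and replicate 4 had 0 counts, which allows up to 0.22 CPM.

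**Figure D3:**
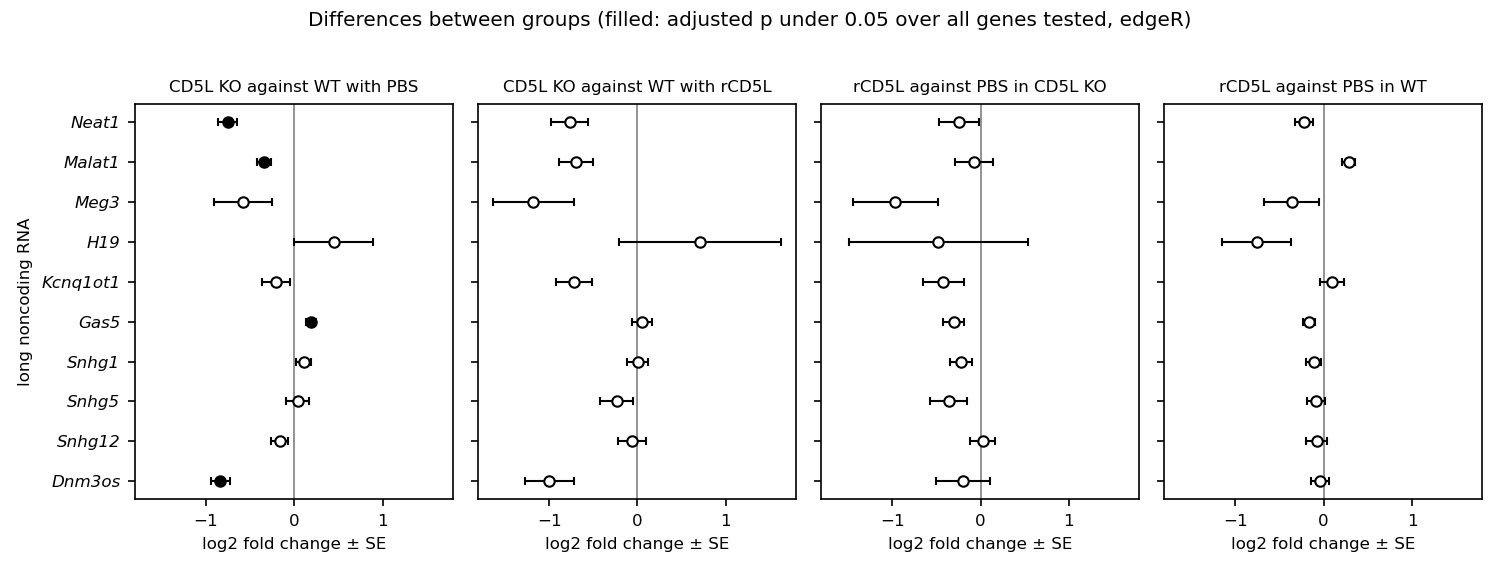
Log2 fold change with its standard error for the 10 long noncoding RNAs in the 4 pairwise comparisons, filled where the adjusted p was under 0.05 (edgeR). Neat1, Malat1 and Dnm3os lie left of 0 in both comparisons of CD5L KO with WT, and filled points occur with PBS only.

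The next question was whether rCD5L moved these RNAs within a genotype. In CD5L KO mice, edgeR called 0 of 17467 genes (0%) between rCD5L and PBS, with 502 genes (2.87%) at an unadjusted p under 0.05, and DESeq2 called 10 genes, none of them among the 10 RNAs. This comparison uses the same CD5L KO kidneys given PBS as the first. Gas5 was the 1 RNA at an unadjusted p under 0.05: rCD5L-treated kidneys had 87.3, 81.3, 71.1, 73.6 and 94.4 CPM, all below the PBS kidneys listed above, where 1.35% of all genes were lower without overlap. Its log2 fold change was -0.30 (SE 0.116, adjusted p = 0.897), or -0.21 (adjusted p = 0.433) without replicates 3 and 4. Beside it, the sum of 10 epididymis markers, of which each group had 1 at 0 in all its kidneys, was 23.8 to 61.8 CPM with rCD5L and 8.5 to 22.2 with PBS, without overlap. The 5 of these markers that could be tested had a median log2 fold change of 1.42, none of them called, among them Gpx5 with 1.52 (SE 0.355, adjusted p = 0.897). The deviations of Gas5 had an r of -0.631 with that sum (-0.513 without the 2 kidneys). Those of Neat1 (-0.614, and -0.48), Kcnq1ot1 (-0.595, and -0.553), Dnm3os (-0.542, and -0.302) and Malat1 (-0.485, and -0.392) had the same sign. Of the other snoRNA hosts 10 of 12 lay below 0 (median -0.144), as did 73 of 87 genes of the translation machinery (-0.158), none called. The part of these markers and lists in the Gas5 values was not tested.

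The log2 fold changes of the others ran from -0.96 (Meg3, SE 0.485) to 0.02 (Snhg12), and 9 of the 10 were below 0, with a median of -0.27 against 0.02 over all genes. Without replicates 3 and 4, H19 went from -0.48 (SE 1.01) to -1.83 (adjusted p = 0.397, edgeR), Snhg5 from -0.36 to -0.14, Kcnq1ot1 from -0.42 to -0.22, Snhg1 from -0.22 to -0.13 and Meg3 to -0.92. Replicate 4 had the lowest Meg3 (0.953 CPM), H19 (0), Kcnq1ot1 (2.78 CPM), Snhg1 (15.0 CPM) and Snhg5 (7.03 CPM) of the 19 kidneys, beside its high proximal tubule sum, the lowest macrophage sum (809.7 CPM over 10 markers, median 2820 in its group) and the lowest fibroblast sum (1544 CPM over 12 markers, median 3810). Over all kidneys of this comparison, all 12 proximal tubule (median 1.36) and 9 of 10 distal nephron markers (0.424) lay above 0. All 8 urothelium (-0.509) and all 5 erythrocyte markers (-0.542) lay below 0, and none of these markers was called. Every one of the 12 proximal tubule and 10 macrophage markers was detected in each group, and the part of the makeup of the kidney in these values was not tested. Neat1 had a log2 fold change of -0.24 (SE 0.229) and Dnm3os -0.20 (SE 0.305), which became -0.09 and 0.15 without replicates 3 and 4.

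In WT mice, edgeR called 0 of 17455 genes (0%) for rCD5L against PBS, with 2797 genes (16%) at an unadjusted p under 0.05 and a smallest adjusted p of 0.0952. DESeq2 called 542 genes, 1 of them Malat1. Across the 17455 genes longer genes had higher log2 fold changes (rho 0.24 by Spearman, with genes as points). Malat1 was the RNA with the smallest p: the 1382, 1078, 1427, 1291 and 1285 CPM with rCD5L overlapped the 966 to 1144 CPM with PBS in 1 kidney, a log2 fold change of 0.28 (SE 0.0745, adjusted p = 0.119 from edgeR and 0.0191 from DESeq2). Neat1, the neighbour of Malat1, had -0.22 (SE 0.103, adjusted p = 0.308), so the values of these nuclear RNAs lay on opposite sides of 0. Gas5 had 88.7, 81.2, 78.1, 77.7 and 67.1 CPM, a log2 fold change of -0.17 (SE 0.0646, adjusted p = 0.229). Dnm3os had 23.3, 17.9, 20.3, 20.0 and 15.9 CPM, a log2 fold change of -0.04 (SE 0.101), and the other snoRNA hosts lay between -0.11 and -0.08.

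The largest log2 fold change of the 10 with rCD5L in WT mice was that of H19, which had 3.96, 8.07, 7.44, 4.22 and 3.43 CPM with rCD5L, overlapping the PBS kidneys. It was -0.76 (SE 0.392, adjusted p = 0.365, edgeR), and that of Meg3 was -0.36 (SE 0.31, adjusted p = 0.604). Of the 10 RNAs 8 lay below 0, with a median of -0.10 against 0.0046 over all genes, and 3 had an unadjusted p under 0.05 (Malat1, Gas5 and Neat1). Beside these values, all 12 proximal tubule markers (median -0.48), all 5 erythrocyte markers (-0.65) and all 8 urothelium markers (-0.22) lay below 0. So did all 12 other snoRNA hosts tested (-0.127) and 80 of 87 genes of the translation machinery (-0.0901). The T and B cell markers lay above 0 in 9 of 10 (0.38), as did the 5 epididymis markers that could be tested (0.81). None of them was called, their sums overlapped between the groups, and their part in the RNA values was not tested.

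Whether the response to rCD5L differed between the genotypes was tested as an interaction over all 19 kidneys. No gene of 18454 was called by edgeR (0%) or DESeq2, with 1154 genes (6.25%) at an unadjusted p under 0.05, and none of the 10 RNAs was among these. Kcnq1ot1 came nearest, with an interaction of -0.50 on the log2 scale (SE 0.249, adjusted p = 0.731), followed by Malat1 with -0.34 (SE 0.214, adjusted p = 0.731). For Neat1 the interaction was -0.0027 (SE 0.247). Without replicates 3 and 4 Kcnq1ot1 had -0.31, Malat1 -0.26 (both adjusted p = 0.969) and Neat1 0.14 (0.981). Over the alternatives other than leaving out 1 kidney, the interaction of Kcnq1ot1 ran from -0.53 to -0.24.

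Kidneys of the same group also differed from each other, and some of the 10 RNAs did so together. Over the 19 kidneys, deviations from the group means of log2 CPM (prior count 2) were compared as a description. These kidneys share depth and makeup, so no p is given. Meg3 and H19 varied together (Pearson's r 0.91, Spearman's rho 0.85), also when replicates 3 and 4 of CD5L KO with rCD5L were left out (r 0.85). They lie on different chromosomes.

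Neat1 varied with Malat1 (r 0.78, rho 0.79, and 0.75 without these 2 kidneys) and with Kcnq1ot1 (r 0.67, rho 0.70, and 0.79), both nuclear RNAs as well. Dnm3os varied with Gas5 (r 0.699, and 0.44 without the 2 kidneys) and Neat1 (r 0.685, and 0.53) to about the same degree, and Kcnq1ot1 with Snhg5 (r 0.684, and 0.411). Gas5 varied with Snhg1 (r 0.64, rho 0.56, and 0.60) and, without the 2 kidneys, with Snhg12 (r 0.665, against 0.326 with all). Snhg5 stood apart from the other hosts once the 2 kidneys were left out, with r from -0.12 to 0.18. Between Meg3 or H19 and Neat1 or Malat1, r lay from -0.34 to -0.04 over all kidneys and from -0.22 to 0.28 without these 2.

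**Figure D4:**
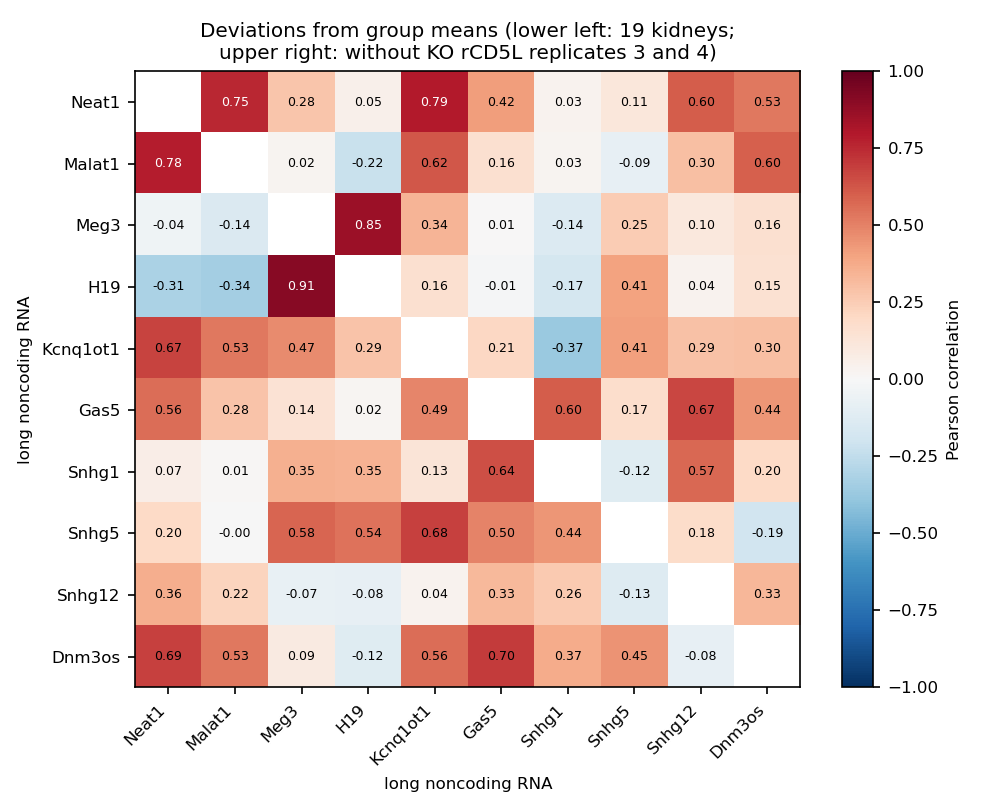
Pearson correlation of deviations from the group mean (log2 CPM) between the 10 long noncoding RNAs, for 19 kidneys at lower left and without replicates 3 and 4 of CD5L KO mice given rCD5L at upper right. Meg3 with H19 (0.91 and 0.85) and Neat1 with Malat1 (0.78 and 0.75) are high on both sides of the diagonal.

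Among the 14322 genes whose log2 CPM averaged 1 or more, those most like each RNA were found in the same way. For H19 these were Eln (r 0.98), which encodes elastin, Islr (0.97) and Col8a2 (0.97), a collagen. For Meg3 they were Itgbl1 (0.97), Cilp (0.96) and Lum (0.95), the last 2 of which encode matrix proteins. Without replicates 3 and 4, r was 0.848 to 0.904 for the genes of H19 and 0.914 to 0.938 for those of Meg3.

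The sums of the fibroblast and myofibroblast markers varied with H19 (r 0.93, and 0.71 without replicates 3 and 4) and Meg3 (r 0.85, and 0.60). The macrophage sum did so as well, with H19 (r 0.791, and 0.669) and Meg3 (r 0.805, and 0.568). It also varied with Snhg5 (r 0.836, and 0.546) and Kcnq1ot1 (r 0.664, and 0.551). Dnm3os had an r of -0.11 with the fibroblast sum and of 0.39 with the macrophage sum (-0.133 and 0.265 without the 2 kidneys), and its closest genes were Thoc2 (0.97), an mRNA export factor, Zfp329 (0.97), a zinc finger gene, and Chd6 (0.96), a chromatin remodeller. It varied with the sum of the paraspeckle and speckle proteins (r 0.95, rho 0.88, and 0.71 without the 2 kidneys). Other RNAs did so as well, namely Neat1 (r 0.709, and 0.574), Kcnq1ot1 (0.656, and 0.658), Gas5 (0.626, and 0.242) and Malat1 (0.609, and 0.795).

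For Neat1 the closest genes were Metap1d (0.95), a mitochondrial aminopeptidase, Nxf1 (0.92), the main mRNA exporter, and Nrbp2 (0.89). For Malat1 they were Hypk (0.92), Dido1 (0.89) and 1810017P11Rik (0.89). Without the 2 kidneys these were 0.86 to 0.923 for Neat1, 0.895 to 0.919 for Malat1 and 0.785 to 0.82 for the genes of Dnm3os. Neat1 and Malat1 varied with the sum of 16 other nuclear or long noncoding RNAs (r 0.86 and 0.69, and 0.83 and 0.78 without the 2 kidneys). Dnm3os (r 0.866, and 0.578) and Kcnq1ot1 (r 0.624, and 0.737) did so as well.

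Kcnq1ot1 was most like Bvht (0.94), a long noncoding RNA, Sp110 (0.88) and Mapk8ip3 (0.87). Its r was -0.73 with the proximal tubule sum, and -0.62 without the 2 kidneys. With that sum Snhg5 had -0.845 (and -0.445), Meg3 -0.719 (and -0.469) and H19 -0.639 (and -0.38). Gas5 was most like 1600012H06Rik (0.89), Lncppara (0.84) and Vmp1 (0.84). For the other hosts, the first gene was Trim45 for Snhg1 (0.825), Sp140 for Snhg5 (0.92) and Svopl for Snhg12 (0.79). Without the 2 kidneys, r was 0.789 to 0.928 for the genes of Kcnq1ot1, 0.734 to 0.857 for those of Gas5, and 0.862, 0.748 and 0.868 for Trim45, Sp140 and Svopl.

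**Figure D5:**
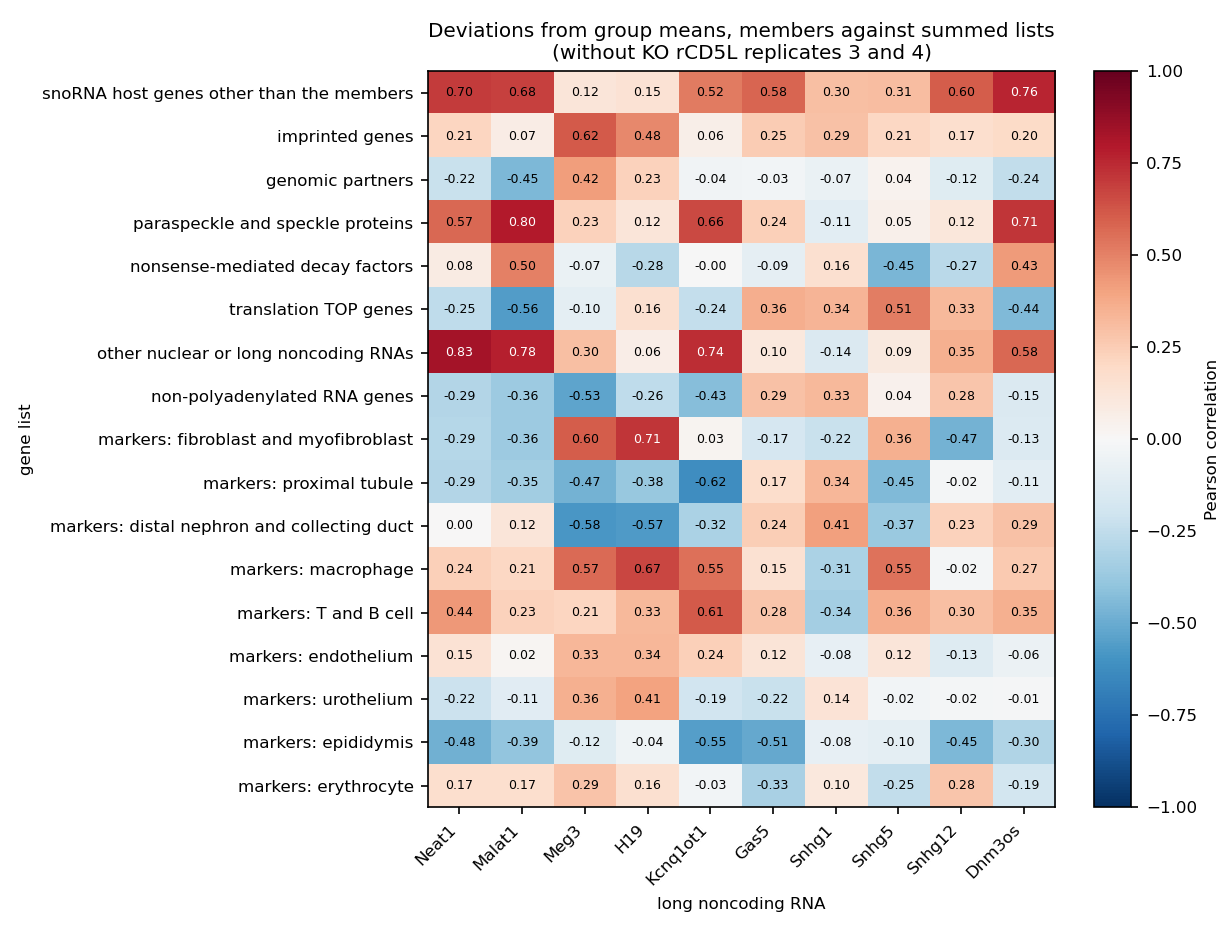
Pearson correlation between the deviation of each long noncoding RNA and that of the summed level of 17 gene lists, over 17 kidneys (without replicates 3 and 4 of CD5L KO mice given rCD5L). Meg3 (0.60) and H19 (0.71) are high with the fibroblast markers, and Neat1 (0.83), Malat1 (0.78) and Kcnq1ot1 (0.74) with other nuclear or long noncoding RNAs.

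The genes around these RNAs were then followed in the PBS groups, as CD5L KO against WT, where 5.4% of all genes were called lower and 5.13% higher. Paraspeckle and speckle proteins, the partners of Neat1 and Malat1, were lower in 5 of 15 and higher in 1. Srrm2, a speckle core protein, had 264 ± 21.8 CPM (SD, n = 4) against 351 ± 23.6 (n = 5), a log2 fold change of -0.42 (adjusted p = 0.0067, edgeR). Among the others, Son (-0.33, adjusted p = 0.0156), Srsf2 (-0.29, 0.0107) and Sfpq (-0.29, 0.0233) were lower as well, and Matr3, a nuclear matrix protein, was higher (0.23, 0.0162). The list had a median of -0.10 against -0.0046 over all genes.

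Of 12 other nuclear or long noncoding RNAs tested, Firre was lower, with 108 ± 13.4 against 142 ± 2.34 CPM (log2 fold change -0.41, adjusted p = 0.00847). Tug1 was higher, with 95.5 ± 3.08 against 82.7 ± 2.48 CPM (0.20, adjusted p = 0.0199). Of 5 genes of non-polyadenylated RNAs, Rn7sk, a small nuclear RNA that holds back transcription elongation, was higher (2.51, adjusted p = 0.00987), as was Hist1h2bc (0.47, adjusted p = 0.0229). The kidneys of Rn7sk were far apart, with 22.1 ± 21.8 CPM against 3.87 ± 1.22.

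Genes of the translation machinery that share the pyrimidine tract of Gas5 and other hosts were higher in 63 of 87, with none lower among the calls and a median of 0.31. Examples were Rps7 (0.45, adjusted p = 0.0047), a ribosomal protein, and Tpt1 (0.43, adjusted p = 0.00526). The length trend of this comparison (rho -0.277) was not removed from these values. From kidney to kidney, Gas5 had an r of -0.119 with the sum of this list, and 0.36 without replicates 3 and 4 of CD5L KO with rCD5L. The 12 other snoRNA hosts had a median of 0.08, with 9 above 0 and none called higher, and Snhg11 (-0.36, adjusted p = 0.00732) and Snhg17 (-0.56, adjusted p = 0.0146) were lower.

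Among 22 imprinted genes tested, 2 were called, a share near that of all genes (10.5%): Peg3 (-0.47, adjusted p = 0.0175) and Grb10 (-0.40, adjusted p = 0.018), both lower. The neighbours of the imprinted RNAs were not called: Rian, which follows Meg3 in its cluster, had -0.23 (SE 0.297), Dlk1 -0.30 (SE 0.40), Kcnq1 0.13 (SE 0.0924) and Cdkn1c 0.10 (SE 0.0900). Igf2, which shares its enhancers with H19, had at most 4 counts in any kidney and a median of 0. Mirg had -0.20 (SE 0.461), Zbtb37 0.0026 (SE 0.101) and Frmd8 -0.07 (SE 0.0567), and Rtl1 had at most 12 counts.

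Markers of other cell types moved with the genotype beside these RNAs. Of 12 fibroblast and myofibroblast markers 6 were lower in CD5L KO kidneys and none higher, among them Pdgfra (-0.50, adjusted p = 0.0047) and Col3a1 (-0.86, adjusted p = 0.00643). Their sum was 3210 to 4440 CPM in CD5L KO and 4550 to 6900 in WT kidneys, so the groups did not overlap. Of 8 endothelial markers 5 were lower, such as Ptprb (-0.46, adjusted p = 0.00497), with a sum of 700.0 to 790.0 against 867 to 975 CPM. Csf1r was lower (-0.47, adjusted p = 0.0386) among 10 macrophage markers, and no marker of proximal tubule, distal nephron, T and B cells, urothelium, epididymis or erythrocytes was called. The 8 urothelium markers nevertheless had log2 fold changes above 0 (median 0.77), and their sum was 316 to 490 CPM in CD5L KO and 47 to 288 in WT kidneys, again without overlap. Every listed fibroblast and endothelial marker was detected in each group, and the part of cell makeup in the lower Neat1, Malat1 and Dnm3os was not tested.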

How the data were processed

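Whole obstructed kidneys of 19 mice in 4 groups were measured. Per the labels and the paper's methods, the authors primed libraries from total RNA (RNA integrity number of 7 or more) with random hexamers, sequenced both ends on an Illumina NovaSeq, used Trimmomatic for trimming, HISAT2 for alignment to GRCm38, featureCounts for counting per gene and DESeq2 for testing. Versions, the strand setting and the handling of reads that match several places are not given in the sources used here. The paper's methods name no step that selected RNA before priming. The authors deposited counts without normalization and FPKM values, which divide the counts by gene length and library size.

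Here the counts went through edgeR 4.0.16 under R 4.3.3 (glmQLFit and glmQLFTest, TMM factors, genes kept by filterByExpr at min.count 10), each pairwise fit holding its own 2 groups and the interaction all 4. Called means a Benjamini-Hochberg adjusted p under 0.05 over all genes tested. Scripts were tested on simulated data. Levels are CPM after TMM scaling, and FPKM where RNAs are compared with each other. Pairs of kidneys from 1 group (36 in all) differed by a chi-square of at least 5.32 per degree of freedom, so each counted as 1 sample. The labels give biological replicates. Groups come from the labels, and every column had a sample.

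Named are the 10 RNAs, the genes around them, from each list the called genes (up to 6 by p, or the 2 with the smallest p where fewer than 2 were called), and the 3 genes most like each RNA. Some genes so named are not reported here. The members and lists were chosen with earlier results of these data known. The alternatives included an offset for gene length (lowess, span 0.3), a block for the replicate number, 1 fit of all 19 kidneys, RLE in place of TMM factors, DESeq2 1.42.0, a minimum of 10 counts in each kidney, no filter at all, limma 3.58.1 on log2(FPKM + 1) and log2(FPKM + 0.1) with a mean FPKM of at least 0.1, and leaving out each kidney. The comparison of the groups given rCD5L, the fits without replicates 3 and 4 and the motifs were added after the data were seen. Intervals and limits for a count of 0 cover counting error only, since molecular identifiers are not stated in the sources used here.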

Additional observations from a re-analysis of the deposited data

Results flagged for a closer look

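Within a group, 2 kidneys lay apart from the others of that group by Dixon's criterion at the 95% level, applied to log2 CPM (prior count 2). Dnm3os had 9.13 CPM in replicate 3 of the PBS-treated CD5L KO mice, where the other 3 kidneys had 11.7 to 12.3 CPM (gap over range 0.846). Without that kidney, Dnm3os had a log2 fold change of -0.74 between the PBS groups (adjusted p = 0.0113, edgeR). Kcnq1ot1 had 5.08 CPM in replicate 2 of the WT mice given rCD5L, where the other 4 had 6.75 to 7.501 CPM (gap over range 0.73). Without it, Kcnq1ot1 had 0.18 for rCD5L in WT mice (adjusted p = 0.496), against 0.10 with all kidneys. Chance flags about 1 in 20 such sets. There were 40 sets of 1 RNA in 1 group, for which 2 are expected by chance and 2 were found. On CPM without logarithms, these 2 had a gap over range of 0.827 and 0.691 and did not pass, and H19 in replicate 3 of CD5L KO with rCD5L did (34.3 CPM, the others 0 to 4.90, gap over range 0.857).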

How the results depend on the processing

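Between the PBS groups, Neat1, Malat1 and Dnm3os were lower in every alternative. They lost their calls with all 19 samples in 1 fit (12 genes and 0 of the 10 RNAs called), and Malat1 also without WT PBS replicate 4. Leaving out 1 kidney gave 1015 to 2062 genes (1015 without WT PBS replicate 4, 1038 without CD5L KO PBS replicate 1, 1121 without WT PBS replicate 2, 1215 without CD5L KO PBS replicate 2) and 2 to 4 of the RNAs (2 without WT PBS replicate 4). Gas5 was lost in 8 of these 9 fits, without a filter (adjusted p = 0.0888), with the length offset (0.0544) and on FPKM values (0.0694 and 0.0702). DESeq2 called 2622 genes and the length offset left 1305. For rCD5L in CD5L KO mice, DESeq2 called 10 genes. For rCD5L in WT mice it called 542 genes and 1 of the RNAs, no filter gave 137 genes, and leaving out 1 kidney gave 0 to 39 (39 without WT PBS replicate 1). For CD5L KO against WT with rCD5L, DESeq2 called 150 genes and 1 RNA (Dnm3os), all 19 samples in 1 fit 1291 genes and 4 RNAs (Neat1, Malat1, Kcnq1ot1, Dnm3os), the fit without replicates 3 and 4 644 genes and 1 RNA (Dnm3os), and leaving out 1 kidney 0 to 1 gene (1 without CD5L KO rCD5L replicate 2).

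The replicate numbers were not taken to pair the kidneys, since not every pair correlated above 0.1: between same-numbered kidneys of the PBS groups the deviations correlated at -0.0195 to 0.342, and 4 of 8 kidneys were closest to their own number. For rCD5L in CD5L KO mice these were 0.052 to 0.369 and 4 of 8, and in the other comparisons below 0 and 0 of 10. With the replicate block, 2132 genes and 4 of the 10 RNAs were called between the PBS groups (Meg3 at -0.78, adjusted p = 0.00307, in place of Gas5, 0.0924), and none of the RNAs in the other comparisons.

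These uncalled values changed sign, for H19 also to values far from 0, and the cause was not tested. Between the PBS groups Snhg5 had -0.026 with the block and -0.054 with the length offset, and Kcnq1ot1 0.022 with the length offset. For rCD5L in CD5L KO mice, Snhg12 had -0.013 with the block, and without replicates 3 and 4 Malat1 had 0.015, Snhg12 -0.057 and Dnm3os 0.15. For rCD5L in WT mice, Kcnq1ot1 had -0.054 with the length offset. For CD5L KO against WT with rCD5L, Snhg1 had -0.0077 with at least 10 counts in every sample, -0.016 with the length offset, and -0.012 and -0.015 on log2(FPKM + 1) and log2(FPKM + 0.1), and H19 had -0.54 with the block, -0.089 and -0.71 on the FPKM scales, and -0.63 without replicates 3 and 4. In the interaction, Neat1 had 0.0064 with DESeq2 and with RLE factors, 0.13 with the length offset and 0.14 without replicates 3 and 4, H19 had -0.00099 with the block, -0.46 and -1.22 on the FPKM scales and -1.07 without replicates 3 and 4, and Dnm3os had 0.19 without them. When 1 kidney was left out, Snhg5 between the PBS groups ranged from -0.051 to 0.12. For rCD5L in CD5L KO mice, Malat1 ranged from -0.17 to 0.046 and Snhg12 from -0.046 to 0.082, and in WT mice Dnm3os from -0.11 to 0.029. For CD5L KO against WT with rCD5L, Gas5 ranged from -0.0043 to 0.10, H19 from -1.01 to 1.04, Snhg1 from -0.038 to 0.066 and Snhg12 from -0.13 to 0.039. In the interaction, Neat1 ranged from -0.13 to 0.13, H19 from -1.42 to 0.61 and Dnm3os from -0.33 to 0.045. Kcnq1ot1, with 38 to 176 counts per kidney, and H19 and Meg3, which scatter most, are the RNAs whose depth or spread limits what could be seen.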
